A study of Mus musculus with 9 samples.

Results

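P0 cortex of Fezf2-/-; Fezf2-EnR mice was set against P0 cortex of Fezf2+/+ mice, to describe which genes stayed at the level of the Fezf2-/- cortex and which passed the Fezf2+/+ level when the null animals carried the transgene. The comparison holds 5 of the 9 bulk RNA-seq libraries of the series, and its members are the 15545 autosomal genes, of 24624 genes in the table, with a mean of at least 10 over the 9 libraries. Every library came from the cortex of 1 pup at postnatal day 0, and the pups descended from crosses of Fezf2+/- with Fezf2+/-; Fezf2-EnR animals. Fezf2+/+ had 3 libraries (replicates bc201 and bc202 of litter m1, replicate bc203 of litter m2). Fezf2-/-; Fezf2-EnR had 2 libraries (bc208 of litter m3, bc209 of litter m2). The 4 Fezf2-/- libraries (bc205 and bc206 of litter m1, bc204 and bc207 of litter m3) are used as the starting point of the return. The null allele holds a placental alkaline phosphatase reporter driven by the Fezf2 promoter, and both groups with Fezf2-/- in their name are homozygous for it. Fezf2-EnR is a transgene made from a bacterial artificial chromosome that spans Fezf2 and its flanks. At the Fezf2 start codon it carries a coding sequence for the Engrailed repressor domain joined to the part of FEZF2 that binds DNA, so the fusion is made only where the Fezf2 sequence in this transgenic line is active.

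Fezf2 encodes a zinc-finger transcription factor of deep-layer cortical projection neurons. Subcerebral neurons of layer 5 send axons to the brainstem and spinal cord, corticothalamic neurons of layer 6 send them to the thalamus, callosal neurons connect the hemispheres, and subplate neurons form the deepest early-born layer. In animals without Fezf2, subcerebral and corticothalamic neurons fail to acquire their identity. The Engrailed domain recruits co-repressors, and the fusion was built to act as a repressor of the genes FEZF2 binds.

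The libraries held between 18716575 and 25127623 reads (20282125 in bc208 and 19272629 in bc209), and all values below are normalised read counts, that is reads divided by a size factor of the library. Both Fezf2-/-; Fezf2-EnR libraries had high Xist (12203 and 7895) and no read of the Y-linked Ddx3y. Of the 3 Fezf2+/+ libraries, bc201 was alike (Xist 10771 and Ddx3y 4.22), whereas the other Fezf2+/+ libraries and all 4 Fezf2-/- libraries were of the opposite type (Xist 0 to 58.9, Ddx3y from 1169 to 1600). Between Fezf2-/-; Fezf2-EnR and Fezf2-/-, the transgene and the Xist type therefore cannot be told apart. Replicate bc209 stood apart from the other 8 libraries on the second principal component (38.97, the others from -20.1 to 16.1, 23.7% of the variance). Replicate bc208 held more RNA of striatal neurons, with a summed level of 12 tested striatal genes of 3696, against 1830 in bc209 and 2192 to 2286 in Fezf2+/+, and the Fezf2-/- replicate bc204 of the same litter held 5030. Choroid plexus genes summed to between 10 and 39 in every library and none of the 7 passed the filter on low values. Genes with short transcripts were slightly lower and those with long transcripts slightly higher in Fezf2-/-; Fezf2-EnR than in Fezf2+/+ (median log2 difference -0.10 in the shortest of 5 length classes, up to 1649 bases, and 0.15 in the longest, from 5148 bases), and the median over all genes was -0.01. Calls that rest on bc208 or bc209 are therefore named.

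Of the 15545 genes, 19 differed between Fezf2-/-; Fezf2-EnR and Fezf2+/+ (limma on log2(value + 1), Benjamini-Hochberg adjusted p under 0.05), which is 0.122% of the genes tested. Of these, 15 were higher and 4 lower. At an unadjusted p under 0.05 there were 2995 genes, 1638 higher (10.5% of the genes tested) and 1357 lower (8.73%), and 125 genes had an adjusted p under 0.1. In all 19 the 2 Fezf2-/-; Fezf2-EnR libraries lay outside the range of the 3 Fezf2+/+ libraries, as they did in 34.7% of all genes tested. An exact two-sided permutation test of 2 against 3 libraries cannot give less than 0.1, so single genes are judged by the limma fit, which pools the spread over all groups. By comparison, the Fezf2-/- cortex differed from Fezf2+/+ in 136 genes (0.875%), 81 higher and 55 lower, and the 2 groups with the null allele differed from each other in 117 (0.753%). The count of 19 rested on single libraries. It was 150 higher and 23 lower without Fezf2+/+ replicate bc203, 198 higher and 278 lower without bc208, and 7 higher and 0 lower without bc209. Without bc208 all 19 genes were still called. Without bc209 no call remained for Samd8, Fam107a, Gm3248, Gm6356, Gm3512, Gm3020, Gm3164, Gm10406, Gm4294, Chd7, 1500035N22Rik and Atp6v0c-ps2 (adjusted p from 0.0867 to 0.38), each in the same direction. In the last 2 fits the lone Fezf2-/-; Fezf2-EnR library was taken to vary like the other groups. With the Xist level as a term, 12 genes were higher and 0 lower, and 7 of the 19 were among them. edgeR on whole reads recovered from the values called 15 genes and DESeq2 621.

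Fezf2 itself (chr14:12342094-12348189, minus strand, GRCm38) was back at the Fezf2+/+ level. It had 1232, 1010 and 979 in Fezf2+/+, 223, 193, 242 and 209 in Fezf2-/-, and 907 and 1001 in Fezf2-/-; Fezf2-EnR. The Fezf2-/- libraries lay far below the rest, and the Fezf2-/-; Fezf2-EnR libraries overlapped the Fezf2+/+ libraries. The log2 difference of Fezf2-/-; Fezf2-EnR from Fezf2+/+ was -0.16 (95% confidence interval -0.44 to 0.11, adjusted p = 0.50) and that from Fezf2-/- was 2.14 (adjusted p = 1.1e-05). The count does not separate transcripts of the null allele from those of the transgene, which carries the Fezf2 DNA-binding domain.

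The genes that stayed different from Fezf2+/+ were mostly on chromosome 14, the chromosome of Fezf2. None was in the lists of projection neuron genes, but with 0.122% of all genes called such short lists hold few or none. Chromosome 14 held 11 of the 19 genes, 1.86% of its 591 tested genes, against 0.0535% of the 14954 genes of the other autosomes. All 11 lay within 10 Mb of Fezf2, where 98 genes were tested (11.2% called). None of the 71 genes between 10 and 20 Mb and none of the 422 genes farther away was among the 19. The farthest called gene, Samd8, lay 9.43 Mb from Fezf2. In Fezf2-/- against Fezf2+/+, 20 of the same 98 genes were called and 1 of the 422. Both groups with the null allele carry it on this chromosome. With litter as a block, 10 of the 11 genes were still called (Gm3500 4.50, adjusted p = 0.000353, and Gm49355 1.97, adjusted p = 0.000353), and Fam107a was not (-1.64, adjusted p = 0.059).

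**Figure D1:**
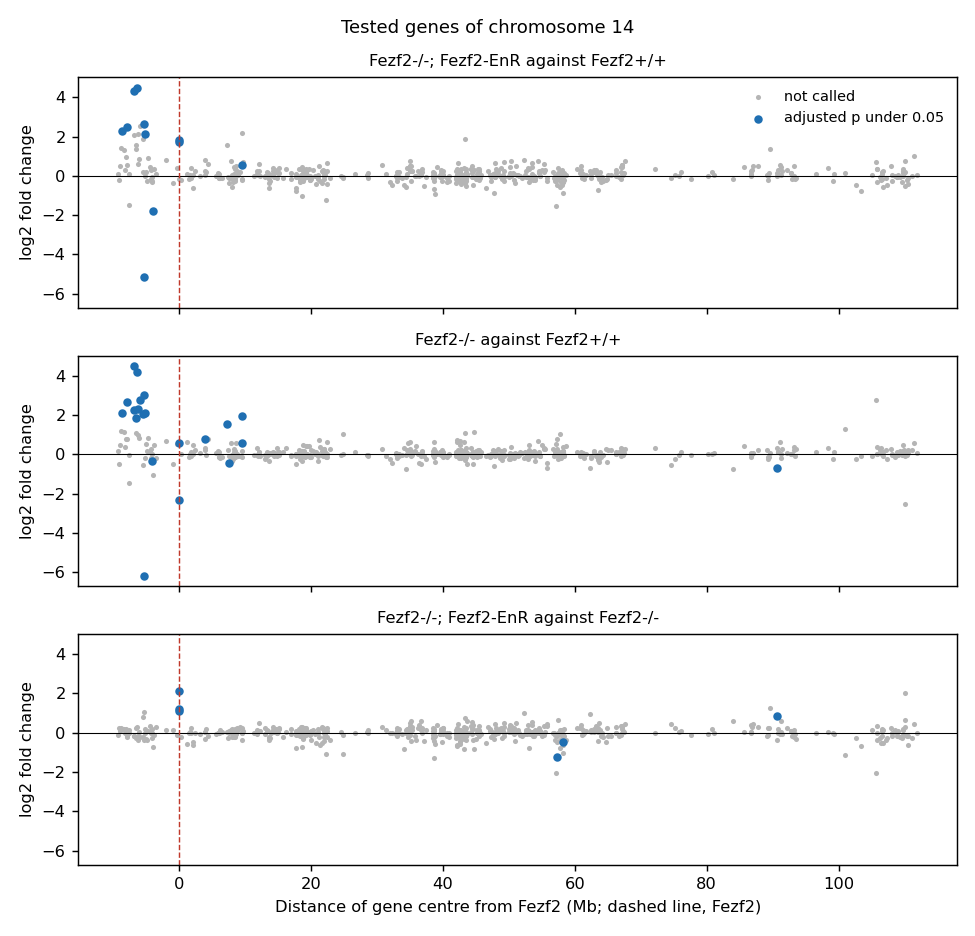
Each point is 1 of the 591 tested genes of chromosome 14, plotted by its distance from Fezf2 in Mb (x axis; the dashed line is Fezf2) and its log2 fold change (y axis) in the 3 comparisons, with genes at an adjusted p under 0.05 in blue. In the comparisons with Fezf2+/+ the called genes gather within 10 Mb of Fezf2 (11 and 20 genes), whereas in Fezf2-/-; Fezf2-EnR against Fezf2-/- only 3 genes are called there.

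Beside Fezf2, the adjacent genes 3830406C13Rik and Gm49355 rose well past both other groups. 3830406C13Rik (chr14:12284173-12303231, plus strand), a protein-coding gene 38.9 kb from Fezf2, had 478, 441 and 432 in Fezf2+/+, 634, 667, 739 and 688 in Fezf2-/-, and 1465 and 1466 in Fezf2-/-; Fezf2-EnR. The 3 groups did not overlap and rose in that order. The log2 difference from Fezf2+/+ was 1.70 (1.51 to 1.89, adjusted p = 1.36e-05). That of Fezf2-/- from Fezf2+/+ was 0.60 (adjusted p = 0.00271), and the step between the 2 groups with the null allele was 1.10 (adjusted p = 9.64e-05). It was the 1 gene called in all 3 comparisons.

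Gm49355 (chr14:12283976-12324454, plus strand), an annotated protein-coding gene whose start is 197 bases from that of 3830406C13Rik, had 96.3, 89.4 and 91.7 in Fezf2+/+, 125, 165, 151 and 125 in Fezf2-/-, and 334 and 321 in Fezf2-/-; Fezf2-EnR. Its log2 difference from Fezf2+/+ was 1.81 (1.49 to 2.14, adjusted p = 0.00033). Its exons overlap those of 3830406C13Rik and D030051J21Rik on the same locus, so the 2 values are not independent and the counting could have shared reads between them. D030051J21Rik was below the filter and not tested, with 0.84, 3.16 and 1.05 in Fezf2+/+, 5.81 to 8.34 in Fezf2-/- and 14.9 and 14.2 in Fezf2-/-; Fezf2-EnR. The other tested genes within 250 kb of Fezf2 were not called. Cadps, which primes dense-core vesicles for release, had a log2 difference of -0.19 (adjusted p = 0.318), and Ptprg, a receptor tyrosine phosphatase, one of 0.40 (adjusted p = 0.295). Whether the transgene carries these neighbours of Fezf2, and in how many copies, was not tested.

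Between 4 and 10 Mb from Fezf2, Samd8 and Fam107a differed in opposite directions. Samd8 (chr14:21750531-21798726, plus strand), which encodes a ceramide phosphoethanolamine synthase of the endoplasmic reticulum, had 2354, 2350 and 2569 in Fezf2+/+, 3436 to 3674 in Fezf2-/-, and 3416 and 3742 in Fezf2-/-; Fezf2-EnR. Its difference of 0.56 (adjusted p = 0.0112) stood beside 0.55 in Fezf2-/- against Fezf2+/+ (adjusted p = 0.00089). It was 0.32 and not called (adjusted p = 0.088) once trends with transcript length and GC content were removed, and 0.50 (adjusted p = 0.124) without bc209. Fam107a (chr14:8296274-8318023, minus strand), an actin-associated stress-response gene, had 85.3, 81.0 and 58.0 in Fezf2+/+, 25.8 to 43.2 in Fezf2-/-, and 24.9 and 17.5 in Fezf2-/-; Fezf2-EnR. Its difference was -1.77 (-2.37 to -1.18, adjusted p = 0.0413), and -1.53 (adjusted p = 0.38) without bc209. In Fezf2-/- the difference of -1.06 was not called (adjusted p = 0.0684), and the difference between the Fezf2-/- groups was not called either (-0.71, adjusted p = 0.215). By edgeR on recovered reads Fam107a was not called against Fezf2+/+ (adjusted p = 0.0617).

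Another 7 of the called genes belong to a family of 71 near-identical predicted genes on proximal chromosome 14, of which 48 are in the table and 31 were tested. Here a near-identical copy is a gene that matches at 90% identity or more over at least 80% of the longest transcript. This family and the other copy families below were put together after the values were seen. Against Fezf2+/+, 6 members rose and 1 fell in Fezf2-/-; Fezf2-EnR, and 12 rose and 1 fell in Fezf2-/-. The summed level of the family was 919, 710 and 1163 in Fezf2+/+, 1232 to 2385 in Fezf2-/- and 1823 and 1848 in Fezf2-/-; Fezf2-EnR. The median log2 difference of the 31 tested members from Fezf2+/+ was 0.97, against -0.01 for all genes.

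Among them, Gm3500 had 1.69, 2.10 and 3.16 in Fezf2+/+, 49.0 to 109 in Fezf2-/- and 59.7 and 69.9 in Fezf2-/-; Fezf2-EnR. This was a fold of 28.0 in reads (7 reads in the 3 Fezf2+/+ libraries, 95% counting interval 13.3 to 71.6, adjusted p = 0.000221 in limma). Gm3248 had no read in any Fezf2+/+ library and 27.9 and 16.4 in Fezf2-/-; Fezf2-EnR, at least 7.5-fold higher taking 3 reads per library as the floor (adjusted p = 0.0295). Gm6356 went the other way, with 65.0, 28.4 and 196 in Fezf2+/+, 0 in all 4 Fezf2-/- libraries, and 1 read in each Fezf2-/-; Fezf2-EnR library. That was a fold of 92.3 in favour of Fezf2+/+ (counting interval 25.0 to 756, adjusted p = 0.0116), and of 44.7 without bc203, the highest library. The remaining members, Gm3512, Gm3020, Gm3164 and Gm10406, had log2 differences from 2.12 to 2.64. Counting intervals cover counting error only. By edgeR on recovered reads Gm3248 (adjusted p = 0.1), Gm6356 (0.107) and Gm3512 (0.0519) were not called. Because reads can be shared between such copies, which member of the family a read came from is uncertain.

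Away from chromosome 14, 6 of the 8 called genes were processed pseudogenes, intron-less copies of a parent gene's transcript, and 5 of these 6 had their closest protein-coding copy on chromosome 14 near Fezf2. Gm8420, Gm10020 and Gm4294 are copies of Rpl15, a ribosomal protein gene 5.93 Mb from Fezf2, Gm6123 is a copy of Pdhb, a subunit of pyruvate dehydrogenase 4.18 Mb away, and Gm10704 is a copy of Rtraf, 7.47 Mb away. Thus 16 of the 19 genes were on chromosome 14 or had their closest protein-coding copy there. Stretches of 60 bases of the coding sequence, taken where parent and copy differ most within an exon, are shown because a short read there falls to one or the other by a few bases. They are from GENCODE M21 transcripts (GRCm38), 5′ to 3′, with the bases that differ in capitals, and lie at chr14:19819947-19820006 (minus, Rtraf), chr3:88576896-88576955 (minus, Gm10704), chr14:8166786-8166845 (minus, Pdhb), chr1:4771921-4771980 (plus, Gm6123), chr14:18270295-18270354 (minus, Rpl15) and chr1:51941106-51941165 (minus, Gm8420).
Rtraf: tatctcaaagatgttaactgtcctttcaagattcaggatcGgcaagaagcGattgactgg
Gm10704: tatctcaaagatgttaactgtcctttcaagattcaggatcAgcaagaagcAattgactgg
Pdhb: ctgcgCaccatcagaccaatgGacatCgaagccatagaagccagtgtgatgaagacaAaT
Gm6123: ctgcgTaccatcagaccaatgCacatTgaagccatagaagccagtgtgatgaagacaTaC
Rpl15: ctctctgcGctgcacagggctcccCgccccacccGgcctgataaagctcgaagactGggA
Gm8420: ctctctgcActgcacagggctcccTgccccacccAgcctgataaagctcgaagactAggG
Over the whole alignment the differences were 10 in 730 bases for Rtraf and Gm10704, 19 in 1066 for Pdhb and Gm6123, and 20 in 596 for Rpl15 and Gm8420.

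These called copies rose in both groups with the null allele, and the parents were lower or level. Gm10704, which also overlaps an exon of Ssr2, had 29.6, 30.5 and 28.5 in Fezf2+/+, 167 to 217 in Fezf2-/- and 221 and 240 in Fezf2-/-; Fezf2-EnR (log2 difference from Fezf2+/+ 2.92, 2.58 to 3.27, adjusted p = 1.36e-05). Its difference from Fezf2-/- was not called (0.27, adjusted p = 0.364). Rtraf had 1823, 1820 and 1628, then 1185 to 1362, then 1229 and 1537 (-0.35, adjusted p = 0.144). The sum of parent and copy was 1853, 1851 and 1657 in Fezf2+/+ and 1450 and 1778 in Fezf2-/-; Fezf2-EnR.

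Gm6123 had 14.4, 29.5 and 20.02 in Fezf2+/+, 120 to 128 in Fezf2-/- and 131 and 127 in Fezf2-/-; Fezf2-EnR (2.60, adjusted p = 0.00106). Pdhb had 1867, 1986 and 1969, then 1491 to 1651, then 1541 and 1540 (-0.33, adjusted p = 0.0963 against Fezf2+/+, and -0.33, adjusted p = 0.027 in Fezf2-/-). The sum of both was 1881, 2016 and 1989 in Fezf2+/+ and 1673 and 1666 in Fezf2-/-; Fezf2-EnR, and the copy was small beside its parent. Of the Rpl15 copies, Gm10020 had 226, 243 and 232, then 596 to 681, then 615 and 642 (1.42, adjusted p = 4.76e-05), Gm4294 had a difference of 0.68 (adjusted p = 0.0274), and Gm8420 had 4 reads in the 3 Fezf2+/+ libraries and 42 and 43 in the Fezf2-/-; Fezf2-EnR libraries, a fold of 35.1 (counting interval 12.7 to 127, adjusted p = 4.76e-05). Rpl15 and its copies summed to 9880, 10575 and 10429 in Fezf2+/+ and to 9861 and 11190 in Fezf2-/-; Fezf2-EnR. Of the 14 tested among them, 3 were called higher and 0 lower in Fezf2-/-; Fezf2-EnR than in Fezf2+/+, with a median log2 difference of 0.01. In Fezf2-/- 4 were higher and 1 lower.

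Only 3 called genes were neither on chromosome 14 nor closest to a gene on it, namely Chd7, 1500035N22Rik and Atp6v0c-ps2. Chd7 (chromosome 4), a chromatin remodeller of the CHD family, had 416, 388 and 393 in Fezf2+/+, 498 to 572 in Fezf2-/-, and 670 and 669 in Fezf2-/-; Fezf2-EnR. The difference was 0.75 (0.55 to 0.94, adjusted p = 0.0069), against 0.41 in Fezf2-/- (adjusted p = 0.028), and it was 0.52 and no longer called (adjusted p = 0.0874) after the same removal of trends. Chd7 was not called between the 2 groups with the null allele (0.34, adjusted p = 0.105). Its longest transcript has 10216 bases, in the longest of the 5 length classes. The long non-coding RNA 1500035N22Rik (chromosome 5) had 318, 297 and 280, then 161 to 196, then 139 and 156, a difference of -1.01 (-1.29 to -0.73, adjusted p = 0.0116). Its difference from Fezf2-/- was not called (-0.20, adjusted p = 0.409).

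Atp6v0c-ps2 (chromosome 6), a pseudogene 99.8% identical to Atp6v0c, a subunit of the vacuolar proton pump, behaved differently from the rest. It had 954, 1170 and 1111 in Fezf2+/+, 1130 to 1269 in Fezf2-/-, and 662 and 499 in Fezf2-/-; Fezf2-EnR, so that the Fezf2-/-; Fezf2-EnR libraries alone were low. The differences were -0.90 from Fezf2+/+ (adjusted p = 0.022) and -1.07 from Fezf2-/- (adjusted p = 0.00216), and Fezf2-/- did not differ beyond the threshold from Fezf2+/+ (0.17, adjusted p = 0.612). The difference from Fezf2+/+ was -0.70 (adjusted p = 0.177) without bc209 and -0.76 (adjusted p = 0.0626) with length and GC trends removed. Atp6v0c itself had a difference of 0.00 (adjusted p = 0.998).

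**Figure D2:**
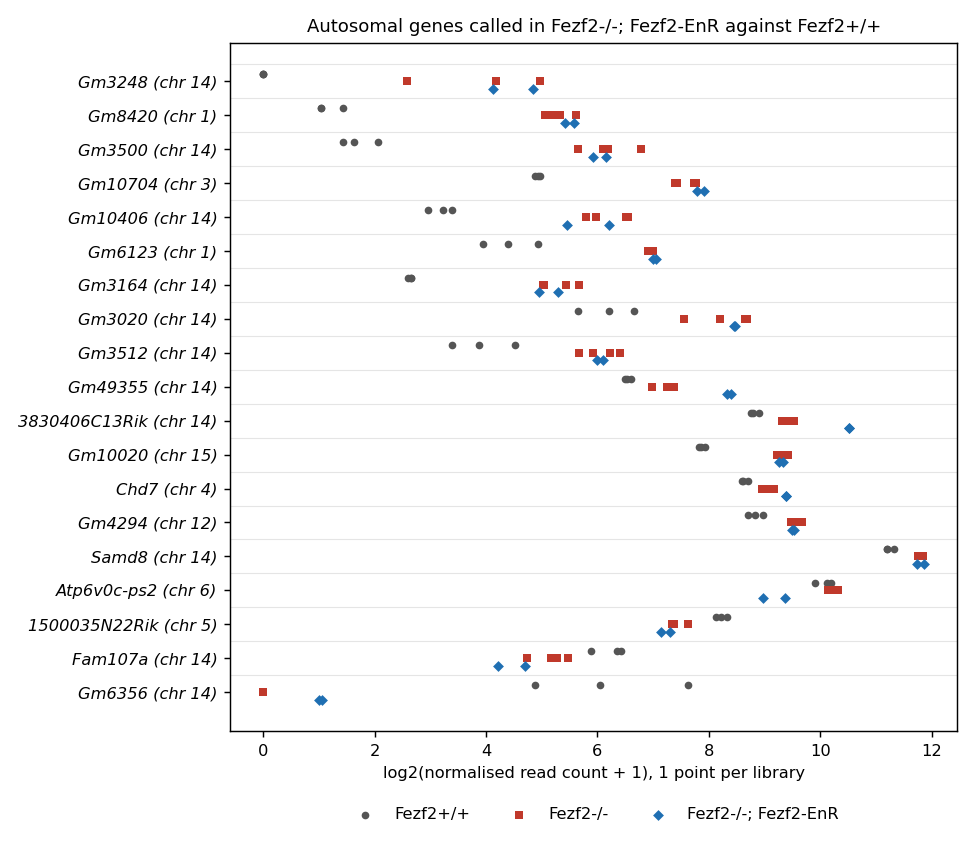
The 19 autosomal genes called in Fezf2-/-; Fezf2-EnR against Fezf2+/+, ordered by log2 fold change, with 1 point per library on a log2(normalised read count + 1) axis. In 11 genes the blue Fezf2-/-; Fezf2-EnR points overlap the red Fezf2-/- points, in 3830406C13Rik, Gm49355, Gm10704 and Chd7 they lie above both groups, in Atp6v0c-ps2, Fam107a and 1500035N22Rik below both, and in Gm6356 just above Fezf2-/-. The difference from Fezf2-/- was called in 3830406C13Rik, Gm49355 and Atp6v0c-ps2 alone.

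Of the 136 genes that differed in the null cortex, 16 still differed from Fezf2+/+ in the presence of the transgene, each in the direction of Fezf2-/-. That was 84.2% of the 19 and 11.8% of the 136. These comparisons share the Fezf2+/+ libraries, so the overlap is a description. The 16 genes had a median absolute log2 difference from Fezf2+/+ of 2.34 in Fezf2-/- and 2.38 in Fezf2-/-; Fezf2-EnR, and 9 of them were on chromosome 14. Another 56 genes were called back against Fezf2-/- in the opposite direction, with a median absolute difference of 0.94 in Fezf2-/- and 0.12 in Fezf2-/-; Fezf2-EnR. The libraries of Fezf2-/-; Fezf2-EnR and Fezf2+/+ did not overlap in 14 of them, where 34.7% of all genes tested did not. The last 64 genes were called in neither comparison of Fezf2-/-; Fezf2-EnR, with medians of 0.71 and 0.33, and in 43 of them the libraries did not overlap those of Fezf2+/+. For these 64 genes the 2 libraries could not place the level at either group. The sets of 16, 56 and 64 genes were sorted by the calls of Fezf2-/-; Fezf2-EnR themselves. Their medians and library overlaps follow in part from that sorting and are a description. Calls against Fezf2-/- also set libraries of high Xist against libraries of low Xist, which cannot be told apart from the transgene.

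In the lists of corticothalamic, subplate and subcerebral genes no member was called against Fezf2+/+, where 0.122% of all genes tested were. Lists this short hold few or no calls at that share. The 3 medians were 0.05, 0.04 and 0.05. In bulk cortex, fewer cells of a type and less RNA per cell cannot be told apart. The list of 12 corticothalamic genes had log2 differences from Fezf2+/+ of -0.23 to 0.29, and in Fezf2-/- the median was -1.0 with 6 of 12 called lower. At an unadjusted p under 0.05, 1 was higher (Grik3, a kainate receptor subunit, 0.22, adjusted p = 0.148) and 1 lower (Hs3st4), where 10.5% and 8.73% of all genes tested were. For Grik3, DESeq2 on recovered reads gave an adjusted p of 0.0436. Of the 12, 6 were called higher in Fezf2-/-; Fezf2-EnR than in Fezf2-/-. Tle4, a co-repressor of layer 6 neurons, had 2861, 2642 and 2755 in Fezf2+/+, 978, 977, 820 and 990 in Fezf2-/-, and 2806 and 3664 in Fezf2-/-; Fezf2-EnR. The Fezf2-/- libraries were well below the others, which overlapped (0.22, -0.04 to 0.48, adjusted p = 0.323 against Fezf2+/+). Zfpm2, a zinc-finger cofactor, had a difference from Fezf2+/+ of 0.10 (-1.61 in Fezf2-/-), with overlapping libraries. Nxph3, a neurexophilin that binds neurexins, had -0.19 (-2.70), Syt6, a synaptotagmin, -0.23 (-1.60), and Hs3st4, a heparan sulfate sulfotransferase, -0.20 (-1.98). In Nxph3, Syt6 and Hs3st4 both Fezf2-/-; Fezf2-EnR libraries lay below all 3 Fezf2+/+ libraries, and in Grik3 above them. In Nxph3 they had 991 and 1021, against 1188, 1160 and 1094 in Fezf2+/+. Among all genes tested 34.7% did not overlap. Wnt7b, a secreted Wnt ligand, had 4078, 5035 and 4044, then 2704 to 3277, then 3507 and 4116, and its difference of -0.20 (adjusted p = 0.361) stood beside one of -0.55 in Fezf2-/- that was called (adjusted p = 0.0248).

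The 7 subplate genes had differences of -0.39 to 0.61, and 0 passed an unadjusted p under 0.05. Cplx3, a complexin of neurotransmitter release, had 103, 78.9 and 114 in Fezf2+/+, 6.03 to 15.6 in Fezf2-/-, and 85.6 and 64.5 in Fezf2-/-; Fezf2-EnR (-0.39, -1.16 to 0.39, adjusted p = 0.573). Ccn2 (Ctgf), a matricellular protein, had a difference of -0.02 (-1.40 in Fezf2-/-) and Nxph4 one of -0.29 (-1.45 in Fezf2-/-). Nxph4 had 327 and 367 in Fezf2-/-; Fezf2-EnR, below the 385, 483 and 410 of Fezf2+/+, whereas in Cplx3 and Ccn2 the libraries overlapped. Nr4a2, a nuclear receptor that rose in Fezf2-/- (0.75, adjusted p = 0.0248), had 2653 and 2016 in Fezf2-/-; Fezf2-EnR against 2179, 2393 and 2156 in Fezf2+/+ (0.05).

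The 16 subcerebral genes tested had differences of -0.16 to 0.54, with 1 higher at an unadjusted p under 0.05 (5 were called lower in Fezf2-/-). Tcerg1l, a marker of layer 5, had 877, 829 and 750 in Fezf2+/+, 162 to 197 in Fezf2-/-, and 700 and 765 in Fezf2-/-; Fezf2-EnR (-0.16, -0.41 to 0.09, adjusted p = 0.462). The differences of Ephb1, an ephrin receptor, Adcyap1, a neuropeptide, Bhlhe22, a helix-loop-helix factor, and Ldb2, a LIM-domain cofactor, ran from -0.02 to 0.07, with -0.82 to -0.41 in Fezf2-/-. The 22 callosal genes had a median of -0.01 and a range of -0.68 to 0.61, with 3 higher and 2 lower at an unadjusted p under 0.05, and Mdga1 (-0.11) and Dkk3 (-0.26), called in opposite directions in Fezf2-/- (0.47 and -0.71), were not called against Fezf2+/+. Fosl2, an AP-1 factor that rose in Fezf2-/- (1.43, adjusted p = 7.45e-06), had 1581 and 1630 in Fezf2-/-; Fezf2-EnR against 1489, 1418 and 1419 in Fezf2+/+ (0.15, adjusted p = 0.415).

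**Figure D3:**
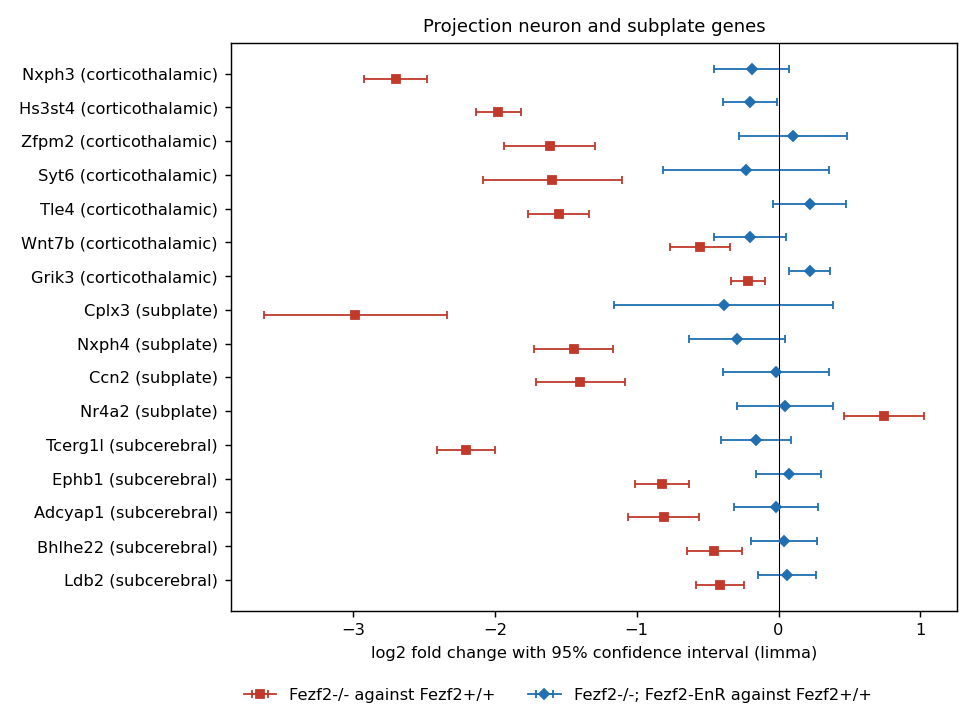
Log2 fold change with its 95% confidence interval (limma) against Fezf2+/+ for 16 projection neuron and subplate genes, in Fezf2-/- (red squares) and Fezf2-/-; Fezf2-EnR (blue diamonds). The 16 are the list members called in at least 1 comparison; their red points span -2.99 to 0.75 and their blue points -0.39 to 0.22, while over all members of the 3 lists Fezf2-/-; Fezf2-EnR reached 0.61.

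Returned genes outside these lists included Ngfr, the p75 neurotrophin receptor (-0.01 in Fezf2-/-; Fezf2-EnR and -2.60 in Fezf2-/-), Ermn, a cytoskeletal protein best known from oligodendrocytes (0.28 and -2.67), and Trhr, the thyrotropin-releasing hormone receptor (0.04 and -2.15). In Ermn and Trhr the libraries bc208 and bc209 lay far apart (110 and 259, 157 and 66.6). Of genes raised in Fezf2-/-, Oxtr, the oxytocin receptor, had 126 and 39.3 in the 2 Fezf2-/-; Fezf2-EnR libraries, around the 48.5 to 67.6 of Fezf2+/+ and below the 195 to 332 of Fezf2-/-. Rgs8, a regulator of G-protein signalling, likewise had 977 and 447 around the 597 to 650 of Fezf2+/+ (Fezf2-/- 1840 to 2310). The higher value was that of bc208, the library with more striatal RNA, in both, and a part of striatal tissue in it was not tested.

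To describe overshoot, genes were counted that differed between the 2 groups with the null allele and whose libraries lay in the order Fezf2-/-, Fezf2+/+, Fezf2-/-; Fezf2-EnR with no overlap. The order alone was met by 100 genes (0.643%), and 31 met both conditions, 9 above and 22 below Fezf2+/+. None of the 31 was called against Fezf2+/+, and 2 had an adjusted p under 0.1 there, so passing the Fezf2+/+ level is a statement on the order of the libraries. Only 5 of the 31 were called in Fezf2-/- against Fezf2+/+. The 2 groups with the null allele also differ in Xist type throughout, which cannot be told apart from the transgene. The count of 31 became 301 without bc208, 2 without bc209, 13 without bc205, 19 without bc206 and 0 with the Xist level as a term.

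The 8 genes farthest past Fezf2+/+ among those with a mean of at least 50 lay below it in 7 cases and above it in 1. Matn2, a matrilin of the extracellular matrix, had 139, 147 and 135 in Fezf2+/+, 412, 365, 347 and 460 in Fezf2-/-, and 124 and 69.9 in Fezf2-/-; Fezf2-EnR. It rose in Fezf2-/- (1.48, adjusted p = 0.0023) and was lower than Fezf2-/- in the transgenic group (-2.06, adjusted p = 0.000818), and its difference from Fezf2+/+ was -0.58 (-1.05 to -0.12, adjusted p = 0.181). Scg2, secretogranin II of dense-core vesicles, had 2524, 2521 and 1855, then 2664 to 4837, then 1635 and 882 (-0.92, -1.57 to -0.27, adjusted p = 0.159). Cryab, a small heat-shock protein whose exons overlap Hspb2, had 288, 342 and 414, then 448 to 539, then 222 and 167 (-0.83, adjusted p = 0.0963).

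In all of these the Fezf2-/-; Fezf2-EnR libraries were the lowest of the 9, as the order used to choose them requires, with bc209 lower than bc208. Ache, the acetylcholinesterase, had 435, 493 and 455 in Fezf2+/+ and 368 and 227 in Fezf2-/-; Fezf2-EnR (-0.67, adjusted p = 0.115), Kcnh1, a voltage-gated potassium channel, 692, 757 and 845, then 541 and 443 (-0.64, adjusted p = 0.122), and Fibcd1, an acetyl-group receptor, 109, 134 and 113, then 78.7 and 74.3 (-0.62, adjusted p = 0.122). Jmjd7, which shares exons with Gm28042, had -0.51 (adjusted p = 0.169). Flrt2, a guidance and adhesion protein of cortical neurons, was the 1 of the 8 that lay above, with 2374, 2014 and 2755 in Fezf2+/+, 1693 to 1968 in Fezf2-/-, and 3161 and 3645 in Fezf2-/-; Fezf2-EnR (0.52, 0.25 to 0.80, adjusted p = 0.115). Without bc208, Ache (adjusted p = 0.00476), Matn2 (0.0257) and Cryab (0.0293) were called against Fezf2+/+. Without bc209 they were not, at -0.32 (adjusted p = 0.388), -0.17 (0.661) and -0.63 (0.38), and Scg2 was at -0.48 (0.522) and Jmjd7 at -0.33 (0.487). With length and GC trends removed Flrt2 was at 0.29 (adjusted p = 0.207). DESeq2 on recovered reads gave an adjusted p under 0.05 for Cryab (0.00164), Flrt2 (0.00593), Ache and Kcnh1 (both 0.0127). It did not for Scg2, Fibcd1 and Matn2 (0.0606 to 0.139), and edgeR gave 0.0998 to 0.133 for Cryab, Flrt2, Ache and Kcnh1. The other 23 genes had differences from Fezf2+/+ of at most 0.77 in size.

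**Figure D4:**
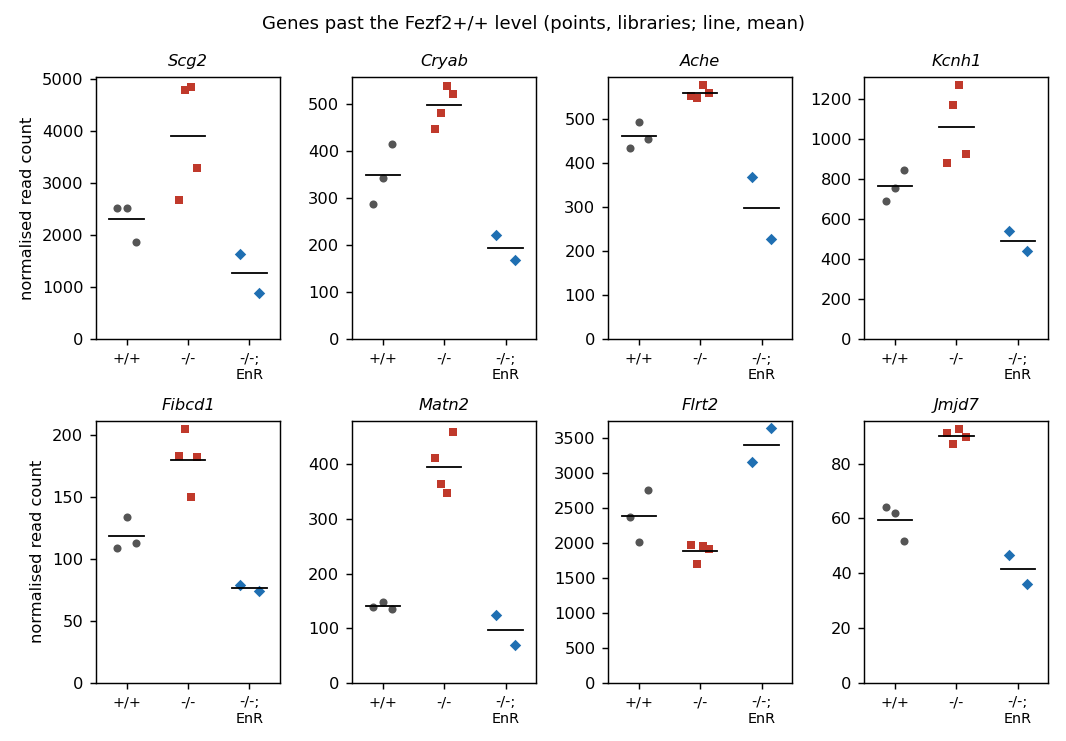
Normalised read counts of the 8 genes farthest past Fezf2+/+ (points are libraries, lines are means, axes start at 0), in Fezf2+/+, Fezf2-/- and Fezf2-/-; Fezf2-EnR. By the rule that chose these genes both Fezf2-/-; Fezf2-EnR libraries lie outside all 7 other libraries, below them in 7 of the 8 genes and above them in Flrt2.

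Several genes of cortical progenitors were higher in both Fezf2-/-; Fezf2-EnR libraries than in any Fezf2+/+ library, without reaching the adjusted threshold in limma. The libraries of the 2 groups did not overlap in 34.7% of all genes tested. For Eomes, DESeq2 on recovered reads, which called 621 genes, gave an adjusted p of 0.00344, and edgeR gave 0.107. Of the 10 progenitor transcription factors tested, 0 were called and the median difference was 0.44. At an unadjusted p under 0.05, 6 were higher and 1 lower, where 10.5% and 8.73% of all genes tested were. Eomes, the factor of intermediate progenitors, had 182, 135 and 91.7 in Fezf2+/+, 119, 120, 108 and 59.0 in Fezf2-/-, and 260 and 506 in Fezf2-/-; Fezf2-EnR. Its difference from Fezf2+/+ was 1.46 (0.63 to 2.29, adjusted p = 0.126), and that from Fezf2-/- was called (1.88, adjusted p = 0.0426). Neurog2, a proneural factor of the dorsal cortex, had 51.5, 45.2 and 55.9, then 38.1 to 70.3, then 93.6 and 168 (1.29, 0.64 to 1.95, adjusted p = 0.113). The values for Pax6 and Sox2, both of radial glia, and Neurod1, a neuronal differentiation factor, were 0.57, 0.45 and 0.43 (adjusted p from 0.113 to 0.185). Emx1, a dorsal cortical factor, had -0.29 (adjusted p = 0.16) and was called lower in Fezf2-/- (-0.44, adjusted p = 0.0296).

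The 9 genes of proliferating cells had a median of 0.31, 0 called and 3 higher at an unadjusted p under 0.05, where 10.5% of all genes tested were. Mki67 had 692, 549 and 435 in Fezf2+/+, 613 to 758 in Fezf2-/-, and 809 and 1046 in Fezf2-/-; Fezf2-EnR (0.74, adjusted p = 0.115). Top2a, a topoisomerase of dividing cells, had a difference of 0.61 (adjusted p = 0.162). For these genes DESeq2 on recovered reads gave an adjusted p of 0.00674 and 0.0472, and edgeR gave 0.117 and 0.163. With length and GC trends removed, limma gave Mki67 0.49 (adjusted p = 0.243), Top2a 0.50 (0.285) and Eomes 1.49 (0.158). With the Xist level as a term they were at 0.41 (0.571), 0.33 (0.689) and 0.99 (0.571). In Eomes, Neurog2, Pax6, Mki67 and Top2a the value of bc209 was above that of bc208, and the 2 libraries came from different litters. Eomes had a difference of 1.94 without bc208 (adjusted p = 0.0476) and of 0.98 without bc209 (adjusted p = 0.418), and Neurog2 of 1.71 (0.0334) and 0.87 (0.392). Without bc209, Pax6 was at 0.35, Mki67 at 0.56 and Top2a at 0.40 (adjusted p from 0.392 to 0.557). Within litter m2, which holds 1 Fezf2+/+ and 1 Fezf2-/-; Fezf2-EnR library and no Fezf2-/- library, the log2 difference of Eomes was 2.45.

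**Figure D5:**
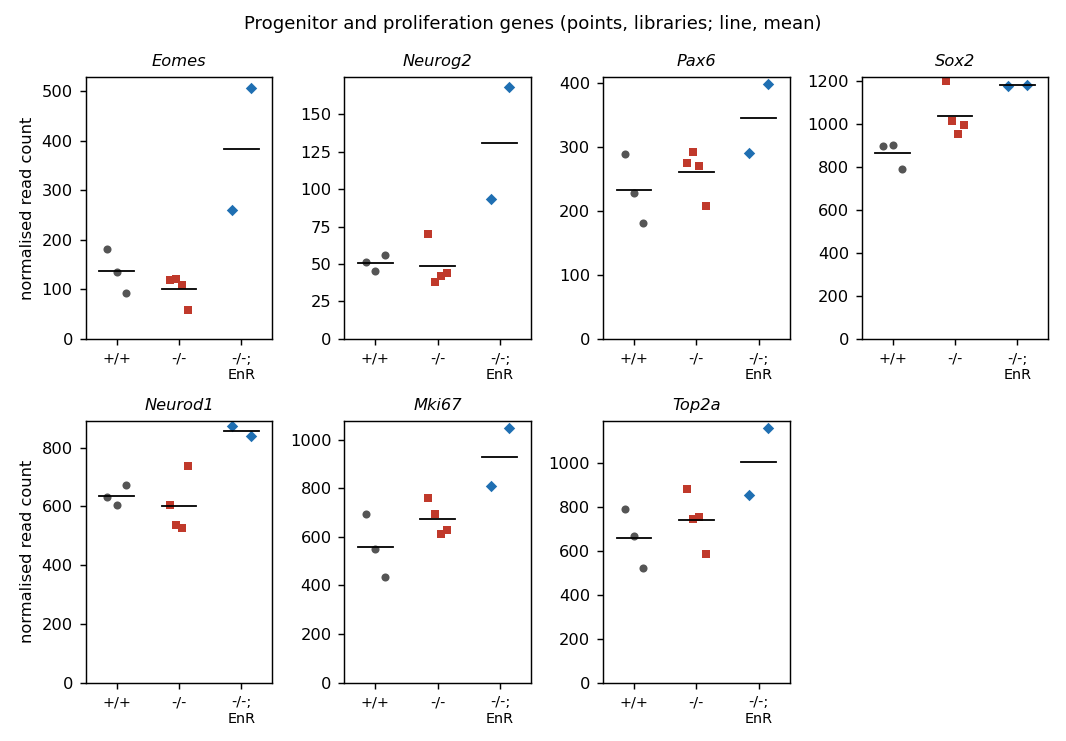
Normalised read counts of 5 progenitor transcription factors and the proliferation genes Mki67 and Top2a (points are libraries, lines are means, axes start at 0), in the 3 genotypes. Both Fezf2-/-; Fezf2-EnR libraries lie above the 3 Fezf2+/+ libraries in each of these 7 genes, which were picked from lists of 10 and 9 tested genes. In Emx1 of the first list, not shown, they lie below, and the 2 groups do not overlap in 34.7% of all genes tested. The 2 libraries (bc208 and bc209) lie well apart in Eomes (260 and 506) and Top2a (853 and 1158).

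Markers of other cell types were examined as lists, and no member of any of the 23 lists was called against Fezf2+/+ in limma. Of all genes tested 0.122% were called, a share at which short lists hold few or no calls. DESeq2 on recovered reads, which called 621 genes, gave some members an adjusted p under 0.05, such as Gad2 (0.0127) and Dlx5 (0.029). The counts at an unadjusted p under 0.05 stand beside 10.5% higher and 8.73% lower among all genes tested. The 12 GABAergic genes had a median of 0.06 (0.51 in Fezf2-/-, 0 called in either) with 3 higher at an unadjusted p under 0.05, namely Gad2 (0.55), Dlx5 (0.67) and Dlx2 (0.28). Their summed level was 12530 to 12736 in Fezf2+/+, 16061 to 17696 in Fezf2-/-, 14560 in bc208 and 12306 in bc209. The 12 striatal genes had a median of 0.38, from Ppp1r1b at -0.23 to Six3 at 1.03, with 0 past an unadjusted p under 0.05, and Six3 had 58.7 in bc208 against 8.74 in bc209. Of 10 astrocyte and radial glia genes 4 were higher at an unadjusted p under 0.05 (median 0.18), of 9 microglia genes 3 were higher and 1 lower (0.18), and of 9 oligodendrocyte genes 1 was higher and 1 lower (0.17). The 5 red blood cell genes tested had a median of -0.54, with 4 lower at that level. The 6 of that list in the table summed to 4168 and 4498 in Fezf2-/-; Fezf2-EnR, against 5644 to 8281 in Fezf2+/+ and 5039 to 8778 in Fezf2-/-.

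The other lists had medians between -0.23 and 0.26. The endothelial list (9 genes) had 0.02, the pericyte list (7) 0.02, the meningeal list (8) 0.05, the hypoxia list (8) 0.04 and the thalamic list (3) 0.26. In the last, Lhx9, a LIM-homeodomain factor, had 4.22, 7.36 and 3.16 in Fezf2+/+, 9.81 to 18.3 in Fezf2-/-, and 20.9 in bc208 against 6.56 in bc209 (1.18, adjusted p = 0.239). The pan-glutamatergic list (7) had -0.11, and its summed level of 56037 and 65073 lay around the 63147 to 64048 of Fezf2+/+. The TLE co-repressors (6) had 0.03. The genes that the study followed by in situ hybridisation (7) and immunostaining (8) had medians of -0.03 and 0.17. These were chosen by the study with these animals in view and are no independent evidence of a direction. The immediate early genes (10) had a median of -0.23, with Btg2, an anti-proliferative gene, at 0.99 (92.9, 97.8 and 121 in Fezf2+/+, 222 and 191 in Fezf2-/-; Fezf2-EnR, adjusted p = 0.0963) and the activity-dependent factor Npas4 at -0.91 (adjusted p = 0.154).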

How the data were processed

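RNA was extracted from each pair of P0 cortical hemispheres, and poly(A) libraries were sequenced paired-end. The authors' processing notes name Bowtie, STAR and DESeq and the build mm10, without versions, and do not say whether counting used strand. The deposited values are a normalized signal, read counts per gene divided by a library size factor, printed to 2 decimals, and 100% of them gave whole reads within 0.006. The study's methods give another number of Fezf2+/+ animals than the labels, which were followed.

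log2(value + 1) was tested with limma 3.58.1 in R 4.3.3 (lmFit, eBayes with a trend), on 16197 genes (mean of 10 or more), with all 9 libraries in 1 fit, 1 coefficient per genotype and no covariate. Benjamini-Hochberg adjustment ran over all 16197 genes, and only the autosomal ones are reported. Fold changes on this scale understate those of low genes. The planned test for raw counts gave way to this one because the values are normalized. edgeR 4.0.16 and DESeq2 1.42.0 were run on the recovered reads as alternatives. Of the 24624 identifiers, 24595 matched GENCODE M21, the source of names, coordinates and transcripts. Near-identical copies were found with BLAST. Replicates are separate animals. The members, the 23 lists (207 of 211 symbols in the table) and the alternatives were chosen with earlier results of these data known. Named genes were Fezf2, every called gene, the 8 genes farthest past Fezf2+/+, the 8 with the largest change each way in Fezf2-/-, genes within 250 kb of Fezf2, and list members called in any comparison or with the lowest p. Parent genes and further list members were named after their values were seen. The values of 1 member of the progenitor list are not reported here, and it stays in that list's counts. The Xist term and the counts without chromosome 14 or copied genes were added after the data were seen. The fits were tested on simulated data. Tables and figures were made in Python 3.11.15 with pandas 2.3.3, SciPy 1.17.1, Biopython 1.88 and matplotlib 3.10.9.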

Additional observations from a re-analysis of the deposited data

Results flagged for a closer look

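In 93 named genes the highest and lowest of the 4 Fezf2-/- libraries were compared with the other 3 by Dixon's ratio, and 9 genes had 1 library far from the others, where chance gives about 1 in 20 groups. Replicate bc204 was that library for 1500035N22Rik (195.84), Zfpm2 (147.63), Nxph4 (125.54), Six3 (96.41) and Slc2a1 (723.11). Replicate bc207 was so for Nr4a2 (4795.87) and Slc17a6 (1295.73), replicate bc206 for Tle4 (820.46) and replicate bc205 for Vtn (310.55). These values enter the comparison of Fezf2-/-; Fezf2-EnR with Fezf2+/+ only through the shared spread. Both comparisons with Fezf2-/- also take them in through the Fezf2-/- mean. The groups of 3 Fezf2+/+ and 2 Fezf2-/-; Fezf2-EnR libraries are too small for this ratio.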

How the results depend on the processing

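The counts of genes higher and lower than Fezf2+/+, shared with Fezf2-/-, and past Fezf2+/+ (15, 4, 16 and 31) stayed within 1.5 times under other pseudocounts, TMM and median-ratio rescaling, no or a weaker filter, autosomes alone, robust variances, and removed length and GC trends. With a mean of at least 50 they were 8, 2 and 8 for the first 3, with only the 2 groups 1 was lower, with edgeR 2 were lower, and with litter as a block 26 were higher. With DESeq2 they were 430, 191, 59 and 53, at an unadjusted p under 0.05 they were 1638, 1357, 585 and 99, and at an adjusted p under 0.1 they were 91, 34, 31 and 54. With the Xist level as a term 0 were lower, 6 shared and 0 past. Without chromosome 14 there were 6, 2 and 7, without genes with a near-identical copy 4, 2 and 4, and without either 1, 1 and 2. Leaving out each library in turn gave 7 to 198 higher, 0 to 278 lower, 6 to 39 shared and 2 to 301 past. The lowest higher and past counts were without bc209 and the highest without bc208. Other libraries moved a count too. Without bc202 there were 1 lower and 10 shared, without bc203 150 higher, 23 lower and 27 shared, without bc204 2 lower, without bc205 2 lower and 13 past, without bc206 19 past, and without bc207 28 were higher. The cause was not tested.

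Of the 19 called genes, 18 were also called with litter as a block (Fam107a had an adjusted p of 0.059), 16 with length and GC trends removed (not Samd8, Chd7 and Atp6v0c-ps2), 15 with edgeR, 10 of the 10 to which DESeq2 gave an adjusted p, 9 with only the 2 groups, 7 with the Xist term and 7 without bc209. The 7 genes called in every fit that gave an adjusted p were 3830406C13Rik, Gm49355, Gm10020, Gm8420, Gm10704, Gm3500 and Gm6123. No called gene changed direction in any fit.

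The labels give no replicate numbers shared between groups, so litter, which links the genotypes, served as the block. Litter m2 alone has 1 Fezf2+/+ and 1 Fezf2-/-; Fezf2-EnR library and gives values with no test. The Xist term rests on bc201, the 1 library with high Xist outside Fezf2-/-; Fezf2-EnR.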
